A study of Mus musculus with 39 samples.

Results

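The CpGs described here were half-methylated in all 4 groups of mouse embryonic stem cells (mESC) measured. They were chosen by their total methylation, 5-methylcytosine (5mC) plus 5-hydroxymethylcytosine (5hmC): a CpG is a member if its value was from 40 to 60% in naive wild type (WT), naive p53-null, retinoic acid-treated WT and retinoic acid-treated p53-null cells. Of 330387 CpGs in the table, 1720 (0.521%) met this rule. Total methylation in the mESC groups is therefore a description here and no finding, and what is reported beyond it is where the members lie, their neighbours, their 5mC, and their level in liver.

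The mESC were derived on irradiated MEF feeder layers in 2i medium from E2.5 morulas of matings between p53+/- mice (129s-Trp53tm2Tyj/J), and were either kept in the naive state or freed of feeders, seeded on gelatin and given 1 μM retinoic acid (RA), a differentiation signal, for 4 days. WT and p53-/- cells were compared in each state. Total methylation came from reduced representation bisulfite sequencing (RRBS), which reads MspI fragments of genomic DNA, with 5 libraries of naive WT, 3 of naive p53-/-, 5 of RA-treated WT and 4 of RA-treated p53-/- cells, and 5mC came from oxidative RRBS (oxRRBS) with 5, 3, 4 and 4 libraries in the same order. Liver came from 16-week-old male WT and p53-/- offspring of p53 heterozygous mice, with 3 RRBS libraries each and no oxRRBS. The labels do not say how many cell lines stand behind each mESC group. The deposited tables give 1 pooled value per group, without coverage and without single libraries, so depth is unknown, no value below has a replicate error, and no comparison between groups could be tested against the spread of replicates.

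Bisulfite sequencing reads 5mC and 5hmC alike, whereas the oxidative variant reads 5mC alone. An intermediate level at a CpG in a population of cells can come from a mark on 1 parental allele in each cell or from a mixture of methylated and unmethylated cells and strands, which levels per CpG do not separate. The best-known regions of the first kind are imprinted control regions, where the mark is set in the egg or the sperm and kept on that allele in body tissues. Naive mESC in 2i medium are known for low methylation over most of the genome, which rises on differentiation.

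A level of 40 to 60% was common in any single group but rarely shared. It was held by 23732 CpGs (7.18%) in naive WT, 25045 (7.58%) in naive p53-null, 27903 (8.45%) in RA-treated WT and 31876 (9.65%) in RA-treated p53-null cells. Both naive groups were in this range at 9645 CpGs, of which the members are 17.8%, and both RA-treated groups at 16445, of which the members are 10.5%. In exactly 3 groups the range was met by 9265 CpGs. Most CpGs of the table, 268566 or 81.3%, were in the range in no group.

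The members were not spread evenly within the limits. Their mean total methylation was 46.6% in naive WT, 51.3% in naive p53-null, 52.8% in RA-treated WT and 51.1% in RA-treated p53-null cells, and the median member varied by 12 points over the 4 groups. At least 1 value of exactly 40 or 60% was held by 533 members (31%). In naive WT 172 members stood at exactly 40% and 23 at exactly 60%, whereas in RA-treated WT 24 stood at 40% and 133 at 60%. The values also heaped at exactly 50%, a level that even small read counts can give: in RA-treated WT 133 members stood at 50%, against 47 at 49% and 70 at 51%. In naive WT the heap was small, with 80 members at 50%, 69 at 49% and 68 at 51%. Just outside the rule, 5448 CpGs had all 4 values from 35 to 65% without meeting it, with means of 43.1, 51.6, 56.1 and 52.9% in naive WT, naive p53-null, RA-treated WT and RA-treated p53-null cells. At the other side, 137 CpGs had all 4 values from 45 to 55%.

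Members lay on the X chromosome and on every autosome. Among chromosomes with at least 1000 measured CpGs, their share of CpGs ran from 0.355% on chromosome 7 (78 members) to 0.701% on chromosome 15 (97 members). The X chromosome held 30 members, 0.607% of its CpGs, within the range of the autosomes, where 0.519% of CpGs were members.

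Most half-methylated CpGs lay far from the next one, in a set that is 0.521% of all CpGs. With gaps of at most 1000 bp, the 1720 members fell into 1675 runs, of which 1630 were single CpGs and 45 were pairs, and no run held more than 2. In runs of 2 or more lay 5.23% of members, 11.1% of the 2996 CpGs at or above 70% in all 4 groups, 38.6% of the 29569 CpGs with a 4-group mean of 40 to 60% outside the rule, and 90.2% of all CpGs, shares that grow with the size of the set. The median distance from one member to the next on its chromosome was 741052 bp. The pairs lay on 19 chromosomes and spanned 7 to 697 bp with a median of 68 bp, and in 34 of them no other measured CpG lay between the members. With 5000 bp allowed, 60 runs of 2 or more formed, the largest of 3.

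The first 10 pairs in order of chromosome name and position show what such a pair looks like. At chr1:74626051-74626100, a span of 50 bp, the first CpG had 58, 55, 53 and 58% total methylation in naive WT, naive p53-null, RA-treated WT and RA-treated p53-null cells, and the second had 40, 59, 49 and 59%. At chr11:72794088-72794111, a span of 24 bp, the values in the same order were 43, 52, 59 and 44% at the first CpG and 55, 41, 58 and 57% at the second. The longest pair, chr10:76911894-76912590, had 1 measured CpG between its members, with 39, 30, 19 and 13% in the 4 groups, so that it was no continuous half-methylated stretch. The other 7 lay at chr10:24117507-24117586, chr11:77655388-77655684, chr11:96506176-96506200, chr11:117978226-117978313, chr12:16647276-16647407, chr12:32815104-32815263 and chr14:54840827-54840841.

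Most members were the only measured CpG in their window of 200 bp. The tile table of the series divides the genome into windows of 200 bp (tiles), and 1055 members (61.3%) were the only CpG of their tile in the CpG table, 432 (25.1%) shared the tile with 1 other measured CpG and none lay in a tile with 9 or more. Among all CpGs 19.2% were alone in their tile and 27.4% lay in tiles with 9 or more. To place these shares, the CpGs whose mean over the 4 groups was from 40 to 60% but which left the limits in at least 1 group were counted as well, 29569 in all, and are called same-mean CpGs below. Of these 58.4% were alone in their tile, and of the 2996 CpGs at or above 70% in all 4 groups 75.5% were. The share of members alone in their tile was thus close to that of the same-mean CpGs. No test of these shares was possible over libraries.

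The flat level of the members was only partly shared by the CpGs next to them. Other measured CpGs lay within 100 bp of 721 of the members, in 1151 pairs of a member and a neighbour. Such neighbours count once for each member they lie near. Their mean total methylation was 40.4% in naive WT, 50.05% in naive p53-null, 56.3% in RA-treated WT and 52.1% in RA-treated p53-null cells, a range of 16 points over the groups, against 6.24 points for the members, whose range the rule limits. The order of the groups was the one seen over all CpGs, with 9.77, 12.6, 16.3 and 15.1%. Same-mean CpGs had a range of 26.2 points themselves, from 35.1% in naive WT to 61.3% in RA-treated WT, and their neighbours within 100 bp one of 25.5 points.

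**Figure D1:**
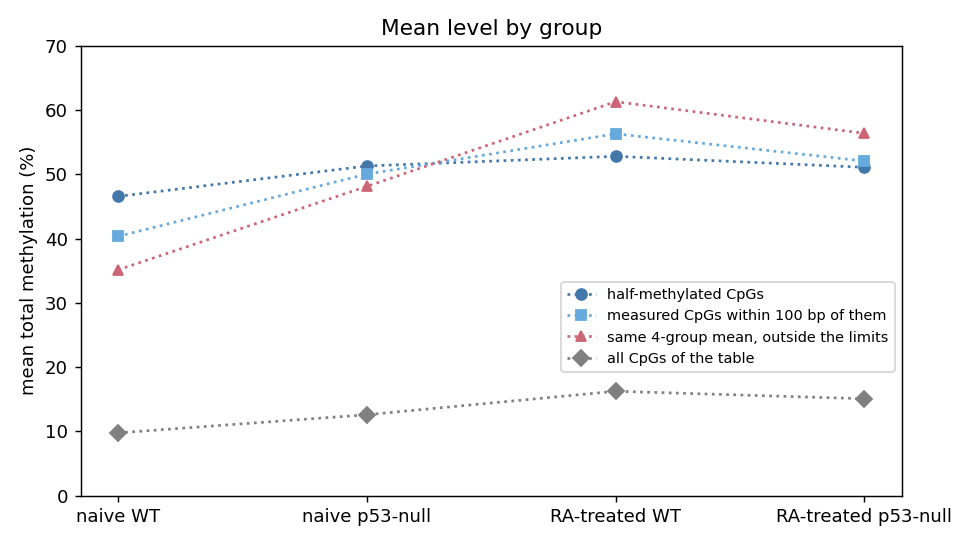
Mean total methylation (%) in the 4 mESC groups. The sets are the half-methylated CpGs, other measured CpGs within 100 bp of them, same-mean CpGs and all CpGs of the table. CpGs within 100 bp count once for each member they lie near. Each point is a mean over CpGs of 1 pooled value per group, and dotted lines only join points of a set. The neighbours run from 40.4 to 56.3%, between the members and the same-mean CpGs.

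Neighbours were intermediate on average, but few were members. Averaged over the 4 groups, a neighbour within 100 bp stood at a median of 50.2%, differed from its member by a median of 10.8 points, and was from 40 to 60% in 46.3% of cases. Around same-mean CpGs these values were much alike, at 9.5 points and 49.8%. Only 3.13% of neighbours had a 4-group mean under 20% and 1.13% one over 80%. Of the neighbours 5.73% were members themselves, against 2.16% of the neighbours of same-mean CpGs and 0.521% of all CpGs. By distance, members made up 5% of neighbours at 1 to 20 bp, 7.58% at 21 to 50 bp, 4.66% at 51 to 100 bp and 2.61% beyond 100 and up to 500 bp. CpGs this close are often read by the same fragments, so they are no independent measurements.

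The oxidative columns of the CpG table put the naive 5mC of most members below 40%. No source used here says what the suffix of these columns stands for. They were taken as oxRRBS, hence 5mC, because the remaining columns of that table are named as totals and because their values lie closest to the tile columns headed 5mC. In naive WT the members' mean 5mC was 24.3% (median 25%, quartiles 14 and 34%), in naive p53-null 32.4% (median 35%), in RA-treated WT 41.6% (median 43%) and in RA-treated p53-null 39.8% (median 41%). In naive WT only 227 members (13.2%) had 5mC from 40 to 60%, and 625 (36.3%) had less than 20%. In naive p53-null cells 607 (35.3%) were in the range, in RA-treated WT 1080 (62.8%) and in RA-treated p53-null 964 (56.0%). Only 42 members (2.44%) held 40 to 60% 5mC in all 4 groups. These shares are limited by the CpG table, where 5mC was never listed above the total. The 172 members at 40% total in naive WT, for example, could meet the range there only at exactly 40% 5mC. In the tile table, which sets no ceiling on 5mC, 63 of the 1405 member tiles with both sets (4.48%) had 5mC from 40 to 60% in all 4 columns.

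**Figure D2:**
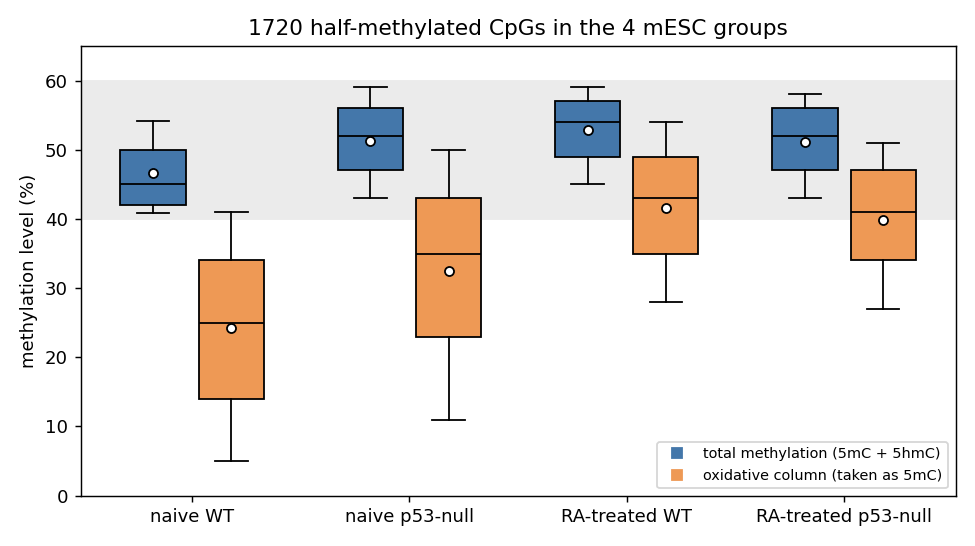
Total methylation (blue) and the oxidative column taken as 5mC (orange), in %, at the 1720 half-methylated CpGs in each mESC group; boxes give median and quartiles over CpGs, whiskers the 10th and 90th percentiles, open circles the means, and the grey band the limits of the rule. Mean 5mC runs from 24.3% in naive WT to 41.6% in RA-treated WT below a total of 46.6 to 52.8%.

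The gap between total methylation and 5mC, an estimate of 5hmC, was widest in the naive groups. It averaged 22.3 points in naive WT (median 21), 18.9 in naive p53-null (median 16), 11.2 in RA-treated WT (median 9) and 11.3 in RA-treated p53-null cells (median 10). At same-mean CpGs it was 17.5, 21, 14.6 and 13.2 points in the same order. At CpGs at or above 70% in all groups it was 23.8, 20.2, 11.9 and 11.7 points. These gaps have a floor that the table sets: among all 330387 CpGs the oxidative value exceeded the total at 0 CpGs in each group, whereas the tile table holds many negative differences. A gap below 0 therefore cannot appear at any CpG of that table, members or not. The total in each gap is also the value by which the members were chosen, so the size of their gaps is not independent of the rule. A gap of at least 20 points in all 4 groups was held by 24 members (1.40%), and 5mC within 5 points of the total in all 4 by 3 members.

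Between genotypes the members' 5mC differed in opposite directions in the 2 states. In the naive state it was higher in p53-null cells at 1179 members (68.5%) and lower at 505, with a mean difference of 8.17 points (32.4 against 24.3%). After RA it was higher in p53-null cells at 723 members (42.0%) and lower at 947, with a mean difference of -1.79 points (39.8 against 41.6%). Same-mean CpGs had the same signs, with 5mC higher in p53-null cells at 68.4% of them in the naive state (9.47 points on average) and at 37.9% after RA (-3.46 points). Over all CpGs, most of which are listed at 0% 5mC in both genotypes, the mean differences were 2.12 and -0.716 points. Between states, 5mC was higher after RA at 1472 members (85.6%) in WT, by 17.3 points on average, and at 1096 (63.7%) in p53-null cells, by 7.36 points. Single members varied widely around these means, with the 10th and 90th percentiles of the naive genotype difference at -15 and 30 points. Without library values, none of these differences has a test.

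The tile table gives total methylation, 5mC and 5hmC without the floor at 0, in 2 sets of columns whose headings name the genotype but not the cell state. In tiles with 1 measured CpG, the naive total of WT differed from the first set's WT total by a median of 4.72 points and from the second set's by 18 points, while the RA-treated total of WT differed by 21 and 5.58 points. The sets are called first and second here. The members lay in 1690 tiles, of which 1508 had values in the first set and 1499 in the second.

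In the first set the WT mean of member tiles was 42.7% for total methylation and 27.6% for 5mC, and the p53-null means were 50.6 and 38.2%. Their 5hmC was 15 points (WT) and 12.5 points (p53-null), against 5.96 and 5.10 points over all tiles. In the second set the WT means were 53.5% total methylation, 46.5% 5mC and 6.94 points of 5hmC, and the p53-null means 50.1%, 42.4% and 7.73 points. All tiles had 1.96 and 2.84 points of 5hmC there. Tiles that hold same-mean CpGs and no member were close to the member tiles, with first-set 5hmC of 12.4 (WT) and 13.5 points (p53-null) and second-set 5hmC of 7.88 and 7.95 points. Negative 5hmC was listed for 7.76% of member tiles in WT in the first set and for 21.9% in the second, against 27.8 and 40.7% of all tiles. Member tiles were reached through CpGs at which 5mC was never listed above the total, so this contrast is no finding about the members.

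Choosing half-methylated tiles from the tile table itself, without passing through the CpG table, gave less 5hmC. There, 6071 of the 214665 tiles with both sets had 40 to 60% total methylation in both genotypes of both sets. Only 1586 of the 6071 held any CpG of the CpG table, and 382 held a member. Their 5mC averaged 34.2% (WT) and 47.9% (p53-null) in 1 set and 54.1 and 47.7% in the other, above the member tiles in each column, and 394 (6.49%) had 5mC from 40 to 60% in all 4 columns. Their first-set 5hmC was 12 points (WT) and 4.24 points (p53-null), and their second-set 5hmC -1.24 and 3.04 points. Negative 5hmC in WT was listed for 16.1% of them in the first set and for 53.9% in the second. The positive second-set 5hmC of member tiles in WT was thus not seen in tiles chosen by the same limits, while the higher value of the first set in WT was present in both. The part that the listing of CpGs has in this gap was not tested.

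**Figure D3:**
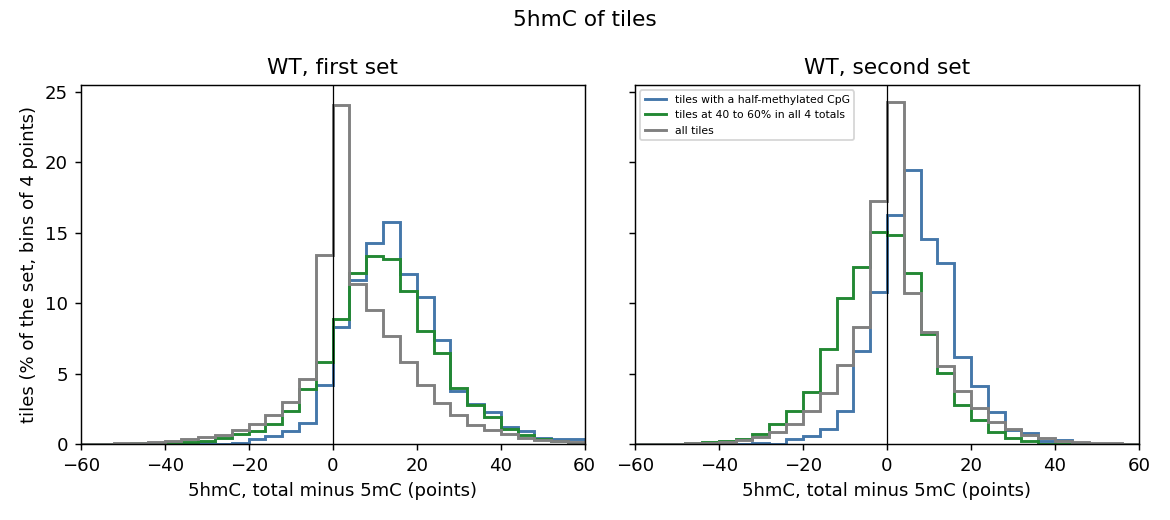
Distribution of 5hmC (total minus 5mC, in points) in WT for tiles with a half-methylated CpG, tiles at 40 to 60% total methylation in both genotypes of both sets, and all tiles, in the first and second set; each line gives the share of tiles (%) per bin of 4 points. In the second set the tiles chosen from the tile table centre near -1.24 points and the member tiles near 6.94.

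The deposited genotype calls on 5mC can be set beside the member tiles, counting as called a difference of at least 10 points with q under 0.05. In the authors' deposited table, 5mC was called higher in p53-null cells in 724 of 1508 member tiles (48.0%) in the first set, against 36.6% of all tiles, and lower in 100 (6.63%), against 6.03%. The second set of the authors' deposited table listed 5mC as higher in p53-null in 52 of 1499 member tiles (3.47%), against 2.81% of all tiles, and lower in 221 (14.7%), against 12.3%. The rule had bounded the genotype difference of total methylation and not that of 5mC. In both sets the more frequent direction was the same in member tiles and over all tiles. Of the 6071 tiles at 40 to 60% in all 4 totals, 54.8% were called higher in p53-null and 6.98% lower in the first set. In the second set 2.52% of them were called higher and 18.9% lower. Calls in the more frequent direction were thus less common in member tiles than in these tiles.

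The member tiles with the widest genotype difference in 5mC differed less in total methylation, but this contrast is no finding. The tiles were picked for their 5mC difference, whereas the rule had bounded the genotype difference in total methylation at the members they hold. The tile chr19:57406001-57406200 had first-set 5mC of 3.45% (WT) and 77.2% (p53-null), with totals of 47.8 and 56.7%. Its difference of 73.7 points had q = 2.38e-11 in the authors' deposited table, and its p53-null 5mC lay above its own total, which the true 5mC cannot exceed. The tile chr5:110336001-110336200 had 31.3 and 86.6% 5mC at totals of 69.5 and 68.9%, again with 5mC above the total in p53-null cells. At chr14:55162401-55162600 5mC was 6% (WT) and 59.8% (p53-null) at totals of 65.6 and 66.3%, with 5mC below the total in both. In the other direction, chr17:81214801-81215000 had 57.4% 5mC (WT) and 9.52% (p53-null), at totals of 54.5 and 52.7% and with q = 0.000181 in the authors' deposited table. It was followed by chr13:92792401-92792600 with 67.9 and 25.9% 5mC, whose totals of 68.2 and 45.8% also lay apart, and by chr2:91488001-91488200 with 52.7 and 13.4% at totals of 43.6 and 37.2%.

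In the second set the largest differences were smaller. 5mC was higher in p53-null cells at chr5:128163801-128164000, with 20.8% (WT) and 60.3% (p53-null), at chr8:123005601-123005800 (9.26 and 46.8%) and at chr9:55959601-55959800 (21.7 and 57.1%). It was lower at chr3:105308601-105308800 (66.7 and 29.7%), chr15:27261401-27261600 (65.8 and 28.9%) and chr15:22417601-22417800 (37.5 and 2.04%). For these 6 tiles the q-value of the authors' deposited table ran from 2.49e-08 to 0.0283. Of the 12 tiles named over both sets, 8 held the member as their only measured CpG and 4 held 2 measured CpGs. In 7 of the 12 tiles 5mC exceeded the total in at least 1 genotype of that set.

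In liver the same places were mostly methylated. The columns used have headings that give genotype alone, and were taken as liver because the liver labels name the tile table. A further 2 columns of levels, headed by genotype and the letter D, were not used, so which columns are liver rests on this reading. The columns taken as liver had a value for 1549 member tiles in WT and 1439 in p53-null. The mean was 79.0% in WT and 78.1% in p53-null, and the median 85.7 and 84.6%. Over all tiles the mean was 63.1 and 61.7% and the median 81 and 80%. Of the 1429 member tiles with both values, 722 (50.5%) were over 80% in both genotypes, 45 (3.15%) were from 40 to 60% in both and 26 (1.82%) were under 20% in both. Over all tiles these shares were 41.4, 2.31 and 23.4%. The share at 40 to 60% in liver was thus small and near the background, as in tiles with same-mean CpGs and no member (2.91%), and the share under 20% was below that of all tiles, as in those tiles (2.02%).

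The liver level of member tiles was close to that of tiles with same-mean CpGs and no member, which averaged 79.7% in WT with a median of 86.8%. Tiles with CpGs at or above 70% in all mESC groups averaged 88.5%. The number of measured CpGs in the tile made little difference, with WT liver means of 78.7, 78.3 and 79.1% for member tiles with 1, 2 and 3 or more. The genotypes were within 10 points of each other in 970 of 1429 member tiles (67.9%), and their mean difference was -0.459 points (p53-null minus WT), against -0.306 over all tiles.

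**Figure D4:**
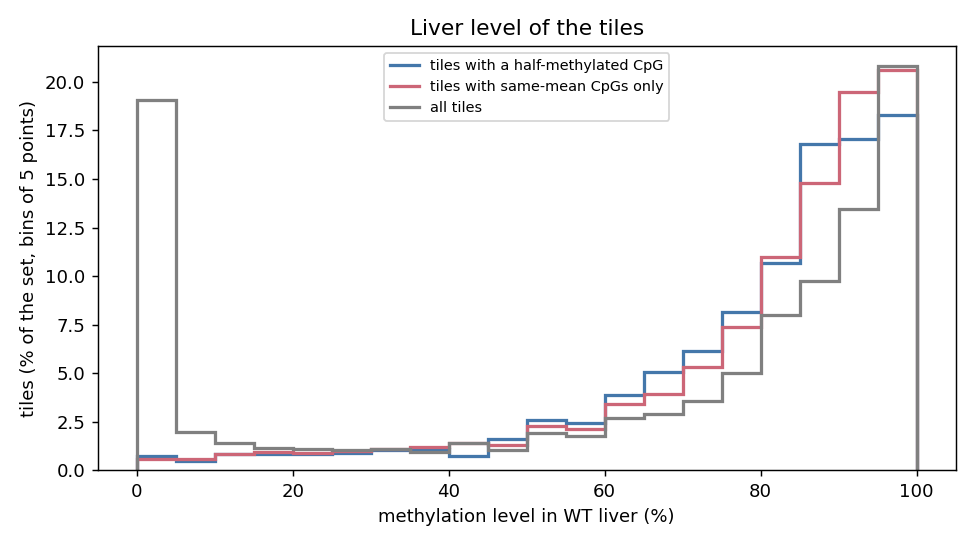
Distribution of the methylation level in WT liver (%) over tiles with a half-methylated CpG, tiles with same-mean CpGs and no member, and all tiles; each line gives the share of tiles (%) per bin of 5 points. Member tiles lack the unmethylated peak of all tiles and crowd above 80%, with a median of 85.7%.

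At the extremes, 32 member tiles were at 100% in both liver genotypes and 2 were at 0% in both. The first 3 of the 32 by position are chr1:34170201-34170400, chr1:132243001-132243200 and chr10:37296601-37296800, each with the member as its only measured CpG. The member of the first had 43, 55, 53 and 60% total methylation in naive WT, naive p53-null, RA-treated WT and RA-treated p53-null cells, and 5mC of 20, 7, 46 and 59%. The tiles at 0% in liver were chr2:167686201-167686400, whose member had 47, 43, 41 and 40% total methylation and 25, 4, 18 and 22% 5mC, and chr6:114870401-114870600, whose member had 42, 46, 43 and 48% and 13, 8, 33 and 27%. Next was chr13:44161201-44161400 with 2.02% in WT liver and 0% in p53-null liver, and a member at 52, 45, 50 and 53%.

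The 26 member tiles under 20% in both liver genotypes held a CpG of 40 to 60% in every mESC group. Their mean 5mC in WT was 25.5% (first set) and 37.3% (second set), and in p53-null cells 35.9 and 38.4%. For the 722 over 80% in both, it was 29.5 and 49.6% in WT and 40.2 and 45.2% in p53-null cells. None of the 26, and none of the 45 at 40 to 60% in liver, lay in an imprinted window.

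Known imprinted loci were compared with the members through 26 windows listed from background knowledge. The list gave the mark to the maternal allele in 21 and to the paternal allele in 5. These data do not separate alleles, so neither the mark nor its allele was checked. Some windows were wide: tiles of the Grb10 window ran from chr11:11925601 to chr11:12029400. Counts over the windows are therefore not limited to the differentially methylated regions themselves. All 26 held measured CpGs, 615 in total, of which 77 were at Jade1. No Jade1 tile with values in both mESC sets was at 30 to 70% in both liver genotypes, nor was any at Mest, Peg3, Inpp5f or Dlk1. Only 3 members lay in the windows, 0.174% of the members and 0.488% of the 615 CpGs, beside 0.521% for the whole table. In the windows 56.3% of CpGs were under 5% in all 4 mESC groups, beside 60.4% of all CpGs. No window held 3 or more members.

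The 3 members lay in the windows of Grb10 (growth factor receptor-bound protein 10, a signalling adaptor), Meg3 (a maternally expressed long non-coding RNA) and Peg13 (a paternally expressed non-coding RNA). The Grb10 member, chr11:11993887-11993888, had 40, 58, 43 and 41% total methylation in naive WT, naive p53-null, RA-treated WT and RA-treated p53-null cells, 23, 52, 27 and 29% 5mC, and 71.8% in WT liver and 81.6% in p53-null liver. The Meg3 member, chr12:110784220-110784221, had 43, 43, 56 and 50% total methylation, 9, 24, 37 and 44% 5mC, and 91.7 and 89.1% in liver. The Peg13 member, chr15:72632975-72632976, had 48, 49, 59 and 55% total methylation, 16, 47, 45 and 49% 5mC, and 37.4 and 29.4% in liver. Of the 3, only the Peg13 tile was below 50% in liver.

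The 23 windows with measured CpGs and no member were those of Gpr1/Zdbf2, Mcts2, Nnat, Gnas, Jade1, Peg10, Mest, Nap1l5, Peg3, Snrpn, Ndn/Magel2/Mkrn3/Peg12, Inpp5f, Kcnq1ot1, Cdh15, Plagl1, Zrsr1, Slc38a4, Igf2r/Airn, Impact, H19, Igf2, Rasgrf1 and Dlk1. Coverage was thin in some, with 1 measured CpG each at Snrpn and H19 and 4 each at Mest, Peg3 and Inpp5f. At the H19 CpG total methylation was 50, 81, 38 and 50% in naive WT, naive p53-null, RA-treated WT and RA-treated p53-null cells. It lay far above the limits in naive p53-null and just below them in RA-treated WT.

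Window tiles at an intermediate level in liver mostly had low methylation in mESC. In the windows 64 tiles had 30 to 70% in both liver genotypes and values in both mESC sets, over 21 windows. On average they had total methylation of 9.95% (WT) and 16.4% (p53-null) in 1 set and of 18.5 and 17.4% in the other, beside 47.4% in WT liver and 48.7% in p53-null liver. Of the 64 tiles, 36 (56.2%) were under 20% in all 4 mESC totals and 14 (21.9%) under 5%. Among all 15409 tiles at 30 to 70% in both liver genotypes, 16.3% were under 20% in all 4 mESC totals and 2.32% under 5%, and 490 (3.18%) were from 40 to 60% in all 4. In the windows, 2 of 265 tiles (0.755%) were at 40 to 60% in all 4 totals, beside 2.83% of all tiles.

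**Figure D5:**
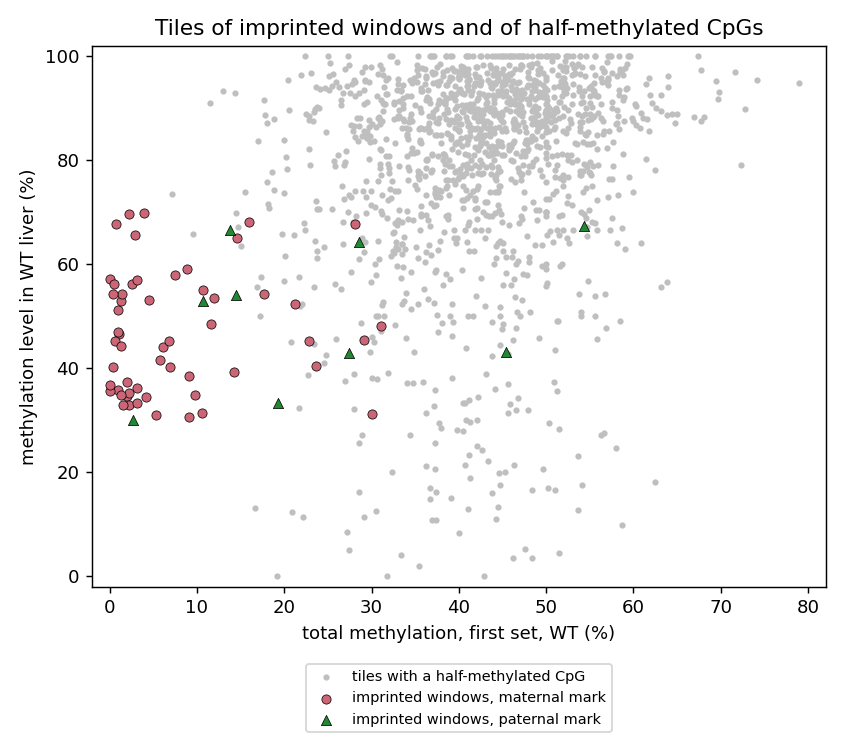
Methylation level in WT liver (%) against total methylation in the first set in WT (%), for tiles with a half-methylated CpG (grey) and for the 64 tiles of imprinted windows at 30 to 70% in both liver genotypes, with the maternal (circles) or paternal (triangles) allele listed as marked. The window tiles average 9.95% in mESC and 47.4% in liver, left of most member tiles.

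Promoter sequences at Mcts2, which holds such tiles, and beside Zrsr1 are shown because the measured CpGs there fit a RefSeq promoter by their spacing. RefSeq promoters (GRCm38.p6 sequence, 250 bases before to 50 after the start) of 22 of the 26 loci were laid over the measured CpG positions by spacing alone, asking that each measured CpG in the window fall on a CG of the promoter and that at least 6 do so at 1 place; 5 of 51 promoters were placed. Mcts2, a retrogene expressed from the paternal allele, lies within an intron of H13, and Zrsr1 within an intron of Commd1. The sequences read 5′ to 3′ on the gene's strand, and capitals mark the measured CpGs.
Mcts2: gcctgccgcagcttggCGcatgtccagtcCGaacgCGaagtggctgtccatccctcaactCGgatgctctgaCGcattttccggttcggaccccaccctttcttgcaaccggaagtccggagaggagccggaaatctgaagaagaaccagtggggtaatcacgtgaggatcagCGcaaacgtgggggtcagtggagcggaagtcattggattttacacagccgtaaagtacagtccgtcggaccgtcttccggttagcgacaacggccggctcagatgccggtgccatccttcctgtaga
Commd1: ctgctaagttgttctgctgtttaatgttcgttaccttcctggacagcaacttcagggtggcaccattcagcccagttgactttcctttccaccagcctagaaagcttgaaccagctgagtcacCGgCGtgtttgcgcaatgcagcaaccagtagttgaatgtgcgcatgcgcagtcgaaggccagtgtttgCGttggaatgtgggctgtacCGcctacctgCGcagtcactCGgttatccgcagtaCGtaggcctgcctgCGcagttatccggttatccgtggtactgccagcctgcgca

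By this spacing match the Mcts2 sequence lies at chr2:152512634-152512933 on the plus strand of mm9 and holds 25 CGs, of which 6 were measured. Their total methylation was from 0 to 3% in every mESC group, with means of 1.00, 1.33, 0.667 and 0.333% in naive WT, naive p53-null, RA-treated WT and RA-treated p53-null cells. The 2 tiles around them stood at 44.2 and 47.1% in WT liver and 39.6 and 50.6% in p53-null liver. The Commd1 sequence lies at chr11:22872817-22873116 on the minus strand and holds 17 CGs, of which 8 were measured, at 0 to 2% in every mESC group. The tile of these measured CpGs stood at 26% in WT liver, below the 30% asked of the 64 tiles, and at 52.9% in p53-null liver. The sequence also reaches into the tile chr11:22873001-22873200, which is among the 64. That tile stood at 45.2% in WT liver and 53.1% in p53-null liver. On the minus strand it and the other such tiles of the Zrsr1 window, up to chr11:22874400, lie upstream of the Commd1 start placed here, not in an intron behind it. Whether this is another start of Commd1 or a misplaced one was not tested. Neither sequence holds a member.

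The other placed promoters were unmethylated in both mESC and liver, with WT liver means of 1.85% at Zdbf2, 0.583% at Blcap in the Nnat window and 0.271% at Jade1.

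Other windows had the same pattern as Mcts2. At Slc38a4 (an amino acid transporter) the tile chr15:96885601-96885800 had totals of 0.998 and 3.07% (WT and p53-null, first set) and of 0.943 and 1.24% (second set), and stood at 51.3 and 44.6% in WT and p53-null liver. At Nap1l5 the tile chr6:58856601-58856800 was at 0.537, 0.986, 1.08 and 3.27% in the same order and at 56.2 and 58.2% in liver. At Igf2r/Airn, where the antisense RNA Airn starts within the receptor gene, chr17:12934401-12934600 was at 0.221 to 0.353% in the 4 columns and at 40.2 and 57.1% in liver.

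Tiles of H19 and Meg3, both paternally marked, had higher totals in some mESC columns. So did the 1 tile of the paternally marked Rasgrf1 window at 30 to 70% in both liver genotypes. Its totals were 27.4% (WT) and 42.8% (p53-null) in the first set, then 46.6 and 34.8% in the second. The 3 such tiles of the paternally marked Igf2 window averaged 11.9, 18.2, 23.2 and 29.8% in the same order. Over all measured CpGs of these windows the naive WT means were lower, 5.04% at Igf2 and 2.33% at Rasgrf1. Maternally marked windows also varied, with a naive WT mean of 42% over the 10 measured CpGs at Peg13 and 33.8% over the 6 at Peg10. The 2 Peg10 tiles at 30 to 70% in both liver genotypes were low, however. They averaged 1.77% (WT) and 15.3% (p53-null) in the first set, then 1.38 and 5.14% in the second. The 1 such tile at Peg13 had 28.1, 14.6, 15.6 and 44.2% in the same order. At H19, a maternally expressed non-coding RNA, chr7:149761601-149761800 had first-set totals of 45.4% (WT) and 48.8% (p53-null), second-set totals of 64.7 and 53.2%, and 43.2 and 50% in liver. At Meg3 the tile chr12:110779001-110779200 had first-set totals of 14.5% (WT) and 59.5% (p53-null), second-set totals of 20.4 and 39.95%, and 54.2 and 50.4% in liver. Its neighbour chr12:110779201-110779400 had 10.7 and 48.3%, then 17.6 and 40.4%. Impact ran the other way at a low level, with first-set totals of 9.79% (WT) and 1.24% (p53-null) at chr18:13131601-13131800 and second-set totals of 11.2 and 2.13%. With the number of cell lines per group not stated, a difference between genotypes and one between lines cannot be told apart here.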

How the data were processed

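RRBS and oxRRBS libraries were processed by the submitters with Trim Galore, BSMAP and methylKit on mm9, per the submitters' processing notes; no source used here gives versions, coverage filters or how the 39 libraries were pooled. The CpG table holds total methylation and oxidative values as whole percent deposited by the authors, and the tile table fractions, differences and q-values deposited by the authors, in other columns whose headings name no cell state. Fractions were multiplied to percent. A further 2 columns of levels, headed by genotype and the letter D, were not used.

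Python 3.11.15, numpy 2.4.6 and pandas 2.3.3 were used. Members met 40 to 60% in 4 columns; runs joined members at gaps of at most 1000 bp; neighbours lay within 100 bp; each tile counted once. The named pairs, windows and tiles follow a fixed rule: the 10 runs with most members (ties by chromosome name and position), windows with at least 3 members, and the 3 tiles most extreme each way in 5mC difference and in liver level; other tiles of imprinted windows were chosen after their values were seen. The imprinted windows were written from background knowledge in mm9. Members and lists were chosen with earlier results of these data known. Counting was tested on simulated data. Alternatives were other limits, gaps, window widths, autosomes, CpG weighting and tiles chosen from the tile table, the last added after seeing the data.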

Additional observations from a re-analysis of the deposited data

Results flagged for a closer look

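The genotype difference in 5mC at the half-methylated CpGs pointed in opposite directions in the 2 cell states. In the oxidative columns p53-null minus WT was 8.17 points in the naive state and -1.79 points after RA. In the tiles of these CpGs it was 10.5 points in the first set and -4.11 points in the second. Over all tiles the differences were 9.51 and -4.07 points. The difference between the states was not tested, since each group has 1 pooled value.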

How the results depend on the processing

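The number of half-methylated CpGs depends on the limits: 137 at 45 to 55% and 7168 at 35 to 65%, beside 1720, and 1690 on autosomes alone. The share in runs was 5.23%; it was 0% at 45 to 55%, 15.2% at 35 to 65%, 7.03% with gaps of 5000 bp and 6.92% for tiles chosen from the tile table. Runs grow with the number of CpGs chosen, so these shares describe the set and its size together. Members in imprinted windows numbered 3, and 0 at 45 to 55%, 8 at 35 to 65% and 5 with windows widened by 50000 bp. The WT liver mean of 79.0% became 77.8% at 45 to 55%, 78.9% on autosomes, 79.1% with each CpG counted once and 80.3% for tiles chosen from the tile table. The first-set 5hmC of 15 points in WT became 16.1, 14.2 and 15.1 points at 45 to 55%, at 35 to 65% and on autosomes, and 12 for tiles chosen from the tile table. The second-set 5hmC of 6.94 points in WT became 8.30, 6.89, 6.99, 6.97 and 6.66 points at 45 to 55%, at 35 to 65%, on autosomes, with each CpG counted once and in tiles where members make up 50% or more of the measured CpGs, and it reversed to -1.24 points for tiles chosen from the tile table; the cause was not tested. The other 7 means moved by at most 3.01 points under the same alternatives, but more for tiles chosen from the tile table, where first-set 5mC went from 27.6 to 34.2% (WT) and from 38.2 to 47.9% (p53-null), second-set 5mC from 46.5 to 54.1% and from 42.4 to 47.7%, and 5hmC in p53-null went from 12.5 to 4.24 points and from 7.73 to 3.04 points. There the genotype difference in 5mC was 13.7 points in the first set and -6.42 points in the second, beside 10.5 and -4.11. No paired analysis was possible because each group comes as 1 pooled column, and for the same reason no library could be left out. Depth is unknown, so no limit from counting can be given.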
